A study of Mus musculus with 49 samples.

Results

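The 33 genes described here are cell cycle and proliferation genes, read out in bulk neocortical RNA of rNLS8 mice, a mouse model of TDP-43 pathology. They were taken by symbol from a table of 45252 genes, which held all 33. They comprise 6 subunits of the minichromosome maintenance (MCM) helicase, 3 genes of DNA replication and nucleotide supply, 9 cyclins, mitotic kinases and ubiquitin ligase factors, 8 genes of the kinetochore and spindle checkpoint, and 7 genes of chromosome structure, spindle and cytokinesis. Their products act in dividing cells, and several also have roles outside division.

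A cell that commits to division first loads the MCM helicase onto replication origins, then copies its DNA in S phase, and then builds a spindle on which cyclin-dependent kinase, Polo and Aurora kinases drive chromosome segregation. Transcription of the helicase and replication genes peaks around the entry into S phase under E2F factors, and transcription of the mitotic genes peaks later, through promoters that often carry CCAAT boxes and the CHR element. Neurons of the adult cortex do not divide. Oligodendrocyte precursors, microglia responding to injury, endothelial cells and infiltrating immune cells can.

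Bigenic mice carried a NEFH-tTa driver, which acts in neurons, together with the tetO-hTDP43ΔNLS transgene, human TDP-43 that lacks the signal for nuclear import. Monogenic mice carried the tetO-hTDP43ΔNLS allele alone and had no driver to switch it on. The groups were ctrl-PBS (monogenic, sham injections, 17 mice), TDP-PBS (bigenic, sham injections, 10 mice), TDP-10+12 (bigenic, vaccinated with peptides 10 and 12 of TDP-43, 10 mice) and TDP-15 (bigenic, vaccinated with the phosphorylated peptide 15, 12 mice). All mice had the mixed C57BL/6J x C3H/HeJ background and both sexes, started injections at 8 weeks of age with 5 before and 1 after induction, lost doxycycline from the chow at 25.5 weeks and were killed 3 weeks later at 28.5 weeks. Peptides were given coupled to ovalbumin, at 40 µg of conjugate in total with adjuvant, and sham-injected mice received PBS in place of the conjugate. Every library came from about 30 mg of perfused neocortex of 1 animal.

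The promoters of 5 members are shown because their letters carry the elements named above and because these genes differed between genotypes, 4 of them upward and Mcm5 downward. Each line gives the 150 bases before the annotated gene, 5′ to 3′ on the gene's strand, from RefSeq. Capitals mark CCAAT, the CHR letters TTTGAA and the E2F letters TTCGCGC or TTGGCGC on either strand, where the E2F strings can overlap each other and a CCAAT box on the reverse strand.

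Mki67 (GRCm38.p6 chr7:135716451-135716600, minus strand): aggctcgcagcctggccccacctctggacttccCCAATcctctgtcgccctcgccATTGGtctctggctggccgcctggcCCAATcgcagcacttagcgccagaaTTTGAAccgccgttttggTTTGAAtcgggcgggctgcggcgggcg

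Top2a (GRCm38.p6 chr11:99024200-99024349, minus strand): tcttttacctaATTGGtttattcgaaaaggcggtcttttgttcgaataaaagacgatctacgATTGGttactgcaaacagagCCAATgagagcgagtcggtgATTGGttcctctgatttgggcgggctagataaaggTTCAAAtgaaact

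Ube2c (GRCm38.p6 chr2:164769779-164769928, plus strand): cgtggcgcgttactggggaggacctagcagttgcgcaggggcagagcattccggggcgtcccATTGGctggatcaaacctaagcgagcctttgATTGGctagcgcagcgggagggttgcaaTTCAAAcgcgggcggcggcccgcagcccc

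Mcm5 (GRCm38.p6 chr8:75109318-75109467, plus strand): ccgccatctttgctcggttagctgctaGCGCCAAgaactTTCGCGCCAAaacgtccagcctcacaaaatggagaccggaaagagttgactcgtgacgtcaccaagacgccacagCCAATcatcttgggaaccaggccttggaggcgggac

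Mcm6 (GRCm38.p6 chr1:128359706-128359855, minus strand): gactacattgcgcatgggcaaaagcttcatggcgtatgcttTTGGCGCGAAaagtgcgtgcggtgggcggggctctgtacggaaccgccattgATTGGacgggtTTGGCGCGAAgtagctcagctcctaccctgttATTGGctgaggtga

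Mki67 held the CHR letters in 2 places, Top2a and Ube2c in 1 each, and all 3 held CCAAT beside them. Mcm5 and Mcm6 held both E2F strings and no CHR letters. Windows from 250 bases before to 50 after a start were on hand for 29 of the 33 members, in 31 windows, and for 27025 genes in 32851 windows (Aurkb, Mcm4, Ccna2 and Tpx2 had no entry). CCAAT occurred in 23 of the 29 members and in 41.1% of all genes with a window. TTTGAA occurred in 16 members and in 20.2% of all genes. TTCGCGC occurred in 5 members and 1.81% of all genes, and TTGGCGC in 7 members and 2.85%. By role, TTTGAA stood in 6 of 7 cyclin, kinase and ubiquitin ligase genes, 5 of 6 chromosome and spindle genes, 4 of 8 kinetochore genes 1 of 5 MCM genes (Mcm2) and none of the 3 replication genes. At least one E2F string stood in Mcm3, Mcm5, Mcm6 and Mcm7, and also in the mitotic members Cdk1, Ccnb1, Mki67 and Hmmr, with none in the replication or kinetochore genes. The Mki67 string lies outside the stretch printed above. These matches describe letters and not binding.

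Library totals ran from 17775738 to 21033608 counts with a median of 19955601. The labels held: all 25 libraries of females had more Xist than any male, and all 24 libraries of males had more Ddx3y than any female. No 2 libraries of a group agreed within sampling noise. Mouse Tardbp, whose transcript falls when the transgene product accumulates, had a log2 fold change of -0.27 in bigenic mice (adjusted p = 1.18e-08). Markers of the olfactory bulb, which is not neocortex, stood out in 8 libraries (3 ctrl-PBS, 2 TDP-10+12 and 3 TDP-15), and counts are given below with and without them.

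Detection set the first limit. A floor of 3 counts corresponded to 0.143 CPM in the deepest and 0.169 CPM in the shallowest library, where CPM is the count of a gene scaled to the library total. Of the 33 members, 27 passed the filter on low counts and 6 did not (Cdk1, Ccnb1, Aurkb, Bub1, Ttk and Ndc80). A member just above the filter was also thinly covered: Bub1b, which encodes the checkpoint protein BubR1, had 1 to 13 counts in ctrl-PBS libraries and was above the floor in 9 of 17. By contrast Mcm7 had at least 131 counts, Pcna at least 238 and Anln at least 289 in every library. CPM is not divided by transcript length, so levels are compared between groups and not between genes.

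**Figure D1:**
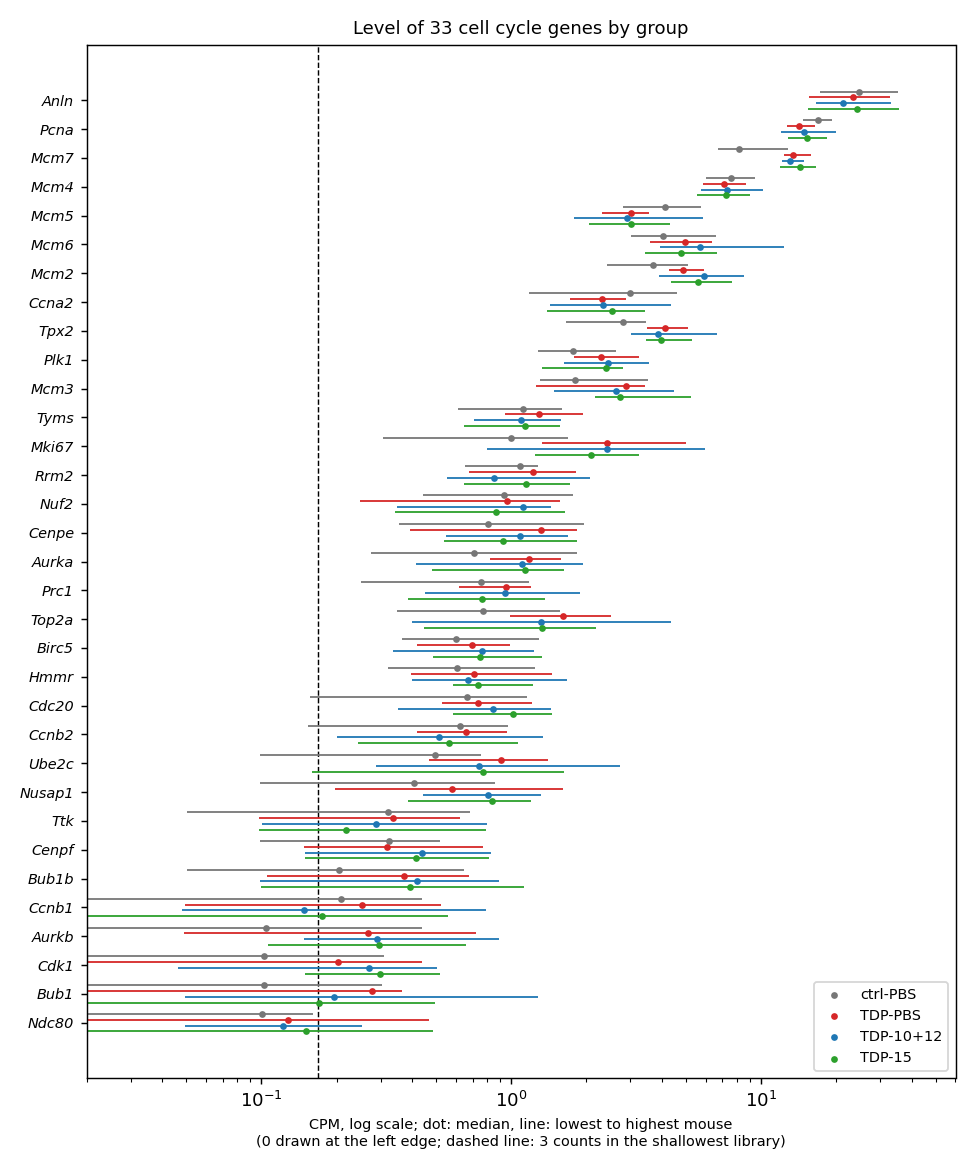
Level of the 33 genes in the 4 groups, in CPM on a log axis, with a dot at the group median and a line from the lowest to the highest mouse. The dashed line at 0.169 CPM marks 3 counts over the raw total of the shallowest library, and the ctrl-PBS medians of Cdk1, Aurkb, Bub1 and Ndc80 lie to its left.

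The comparison of genotypes asked which of these genes differ once the transgene is induced. Averaged over the 3 bigenic groups, 14 of the 27 tested members were higher than in ctrl-PBS and 2 were lower (edgeR quasi-likelihood test, adjusted p under 0.05 over 18220 genes), where 27.1% of all tested genes were called higher and 27.0% lower. These are 51.9% and 7.41% of the tested members. The counts by role given below rest on few genes each and stand beside the same shares of all genes. The higher members were Mki67, Top2a, Ube2c, Nusap1, Bub1b, Mcm7, Tpx2, Mcm2, Mcm3, Cdc20, Cenpe, Aurka, Mcm6 and Plk1, and the lower ones Mcm5 and Pcna. The median log2 fold change of the 27 was 0.35, against 0.0015 over all tested genes. Log2 fold changes ran from -0.49 (Mcm5) to 1.19 (Mki67).

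Each bigenic group was also compared with ctrl-PBS on its own, and these 3 comparisons share the 17 control mice. In TDP-PBS 10 members were called higher and 2 lower, where the shares of all genes were 21.9% and 21.6%. The higher ones were Mcm2, Mcm3, Mcm7, Mki67, Nusap1, Top2a, Tpx2, Ube2c, Tyms and Aurka, and the lower ones Mcm5 and Pcna. In TDP-10+12 9 were higher and 2 lower, against 20.8% and 20.0%. They differed from the list of TDP-PBS by holding Mcm6 and lacking Tyms and Aurka. In TDP-15 10 were higher and 1 lower, against 23.7% and 23.2%, here with Bub1b and Cdc20 in place of Tyms and Aurka and without Pcna. A call in one group and not in another is no test of their difference, and the shared controls bind the lists together.

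**Figure D2:**
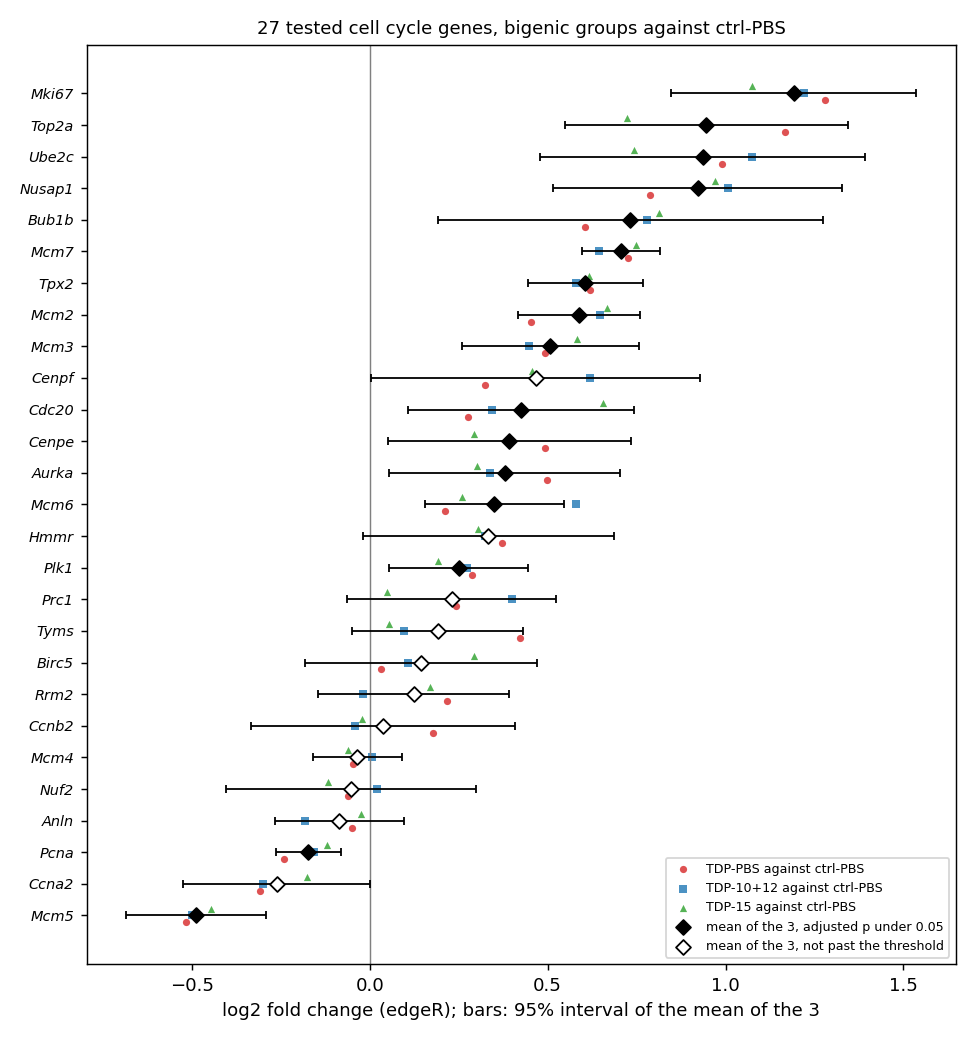
Log2 fold change against ctrl-PBS of the 27 tested genes, ordered by the mean of the 3 bigenic groups (diamonds, filled where adjusted p is under 0.05, with 95% intervals), and the value of each bigenic group (small symbols). Mki67 tops the order at 1.19 and Mcm5 stands at its foot at -0.49.

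Among the MCM genes, whose 6 products form the ring-shaped replicative helicase, 4 were higher, 1 was lower and Mcm4 did not pass. Mcm7 had the smallest p of all members. Its CPM in ctrl-PBS ran from 6.72 to 12.8 with a median of 8.18. In TDP-PBS it ran from 12.4 to 15.8 (median 13.5), in TDP-10+12 from 12.1 to 14.9 (median 13) and in TDP-15 from 11.9 to 16.5 (median 14.3). The 17 control mice lay below every bigenic mouse with a single exception, and 25 of 32 bigenic mice were above every control. The log2 fold change was 0.71 ± 0.05 (SE; 1.63-fold; adjusted p = 6.2e-16). Mcm7 (chr5:138164583-138172111, GRCm38.p6) overlaps Ap4m1 and hosts 3 microRNA genes (Mir25, Mir93, Mir106b), and whether reads were counted by strand is not given in the sources used here. Cdc20, Aurka, Ccna2, Prc1 and Anln likewise each overlap a protein-coding gene (Elovl1, Cstf1, Exosc9, Rccd1 and 9530077C05Rik, in that order) and could share reads with it.

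Mcm2, the subunit most used as a marker of licensed cells, ran from 2.41 to 5.11 CPM in ctrl-PBS (median 3.68) and from 3.91 to 8.55 in bigenic mice (median 5.29). The groups overlapped, with 17 of 32 bigenic mice above every control, and the log2 fold change was 0.59 ± 0.09 (SE; adjusted p = 5.66e-08). Mcm3 had medians of 1.80 CPM in ctrl-PBS and 2.80 in bigenic mice, with only 2 bigenic mice above every control, and its difference was 0.51 ± 0.12 (adjusted p = 0.000484). Mcm6 was 0.35 ± 0.10 higher on the log2 scale (adjusted p = 0.00201), with 0.58 ± 0.12 in TDP-10+12. That group's value included mouse 8 at 12.4 CPM, where the next mouse had 6.88, and without it was 0.43 (adjusted p = 0.00135).

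Mcm5, which sits beside Mcm2 in the ring, moved the other way. It ran from 2.81 to 5.77 CPM in ctrl-PBS with a median of 4.14. Its range was 2.32 to 3.57 in TDP-PBS (median 3.02), 1.79 to 5.83 in TDP-10+12 (median 2.89) and 2.04 to 4.33 in TDP-15 (median 3.01). Of 32 bigenic mice 14 were below every control, and TDP-10+12 mouse 8 was above them all. The log2 fold change was -0.49 ± 0.10 (SE; adjusted p = 3.25e-05) and the level fell by 28.7%. Mcm4, with a log2 fold change of -0.03 and a 95% interval from -0.16 to 0.09, had overlapping ranges of 5.99 to 9.44 CPM in ctrl-PBS and 5.52 to 10.1 in bigenic mice.

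**Figure D3:**
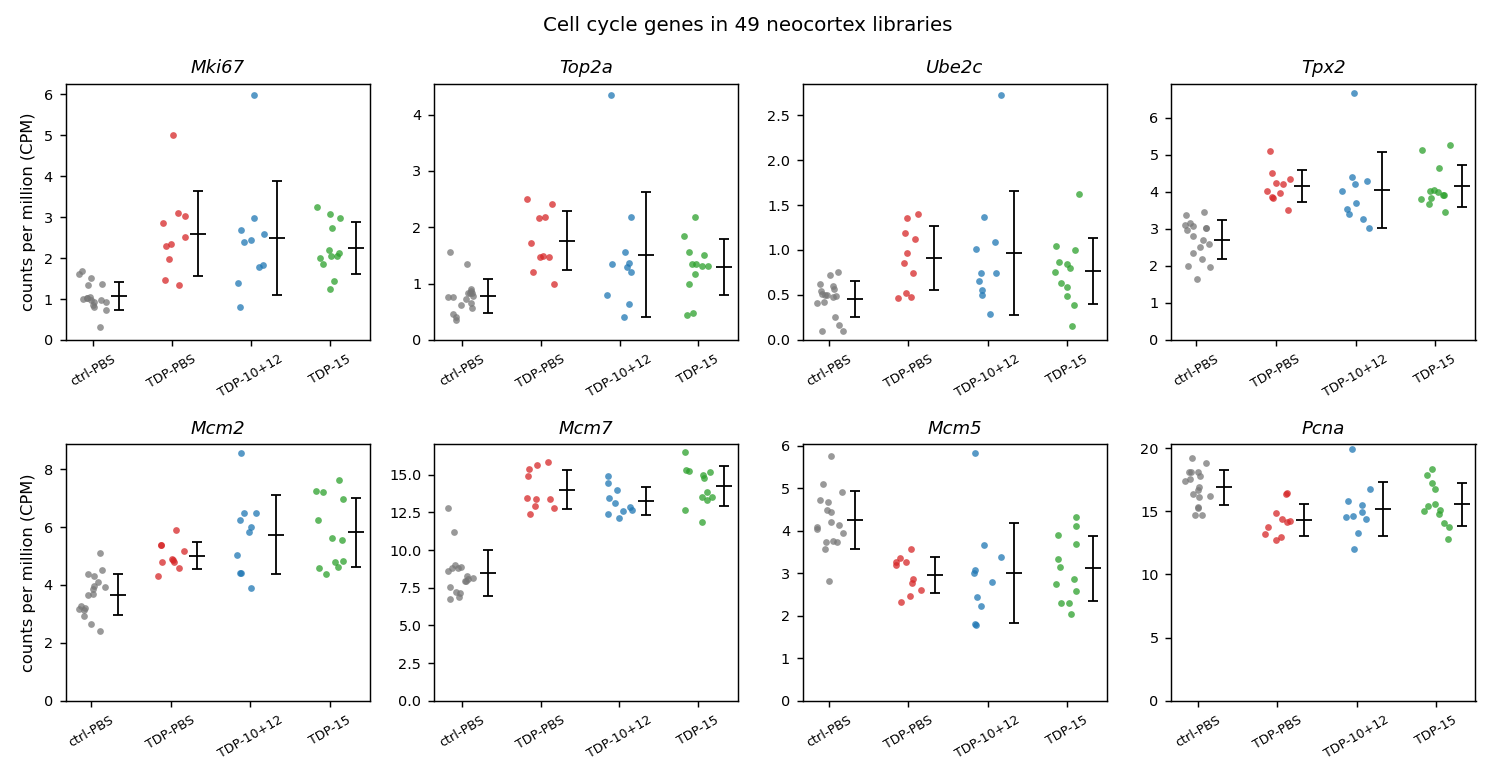
CPM of 8 genes in each of the 49 mice (dots) with the group mean and SD (black). Mcm7 and Tpx2 separate most bigenic mice from ctrl-PBS, Mcm5 and Pcna lie lower in bigenic mice, and 1 TDP-10+12 mouse (mouse 8) is the highest of its group in all but Mcm7 and Pcna.

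Of the 3 genes of replication and nucleotide supply, none was higher in the mean of the bigenic groups. Pcna encodes the sliding clamp of DNA polymerase and also serves in DNA repair outside S phase. Its median was 16.9 CPM in ctrl-PBS, 14.2 in TDP-PBS, 14.8 in TDP-10+12 and 15.2 in TDP-15, with 15 of 32 bigenic mice below every control. It was lower by a log2 fold change of -0.17 ± 0.05 (adjusted p = 0.00114). A processed copy, Pcna-ps2, could share reads with it. Rrm2, the regulatory subunit of ribonucleotide reductase, had a log2 fold change of 0.12 with a 95% interval from -0.14 to 0.39, at 11 to 42 counts per bigenic library. Tyms, thymidylate synthase, which also has a named pseudogene, had 0.19 with an interval from -0.05 to 0.43.

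Among cyclins, mitotic kinases and ubiquitin ligase factors, 6 of 9 members could be tested and 4 were higher. Ube2c is the ubiquitin-conjugating enzyme of the anaphase-promoting complex. It ran from 0.0987 to 0.759 CPM in ctrl-PBS, which is 2 to 15 counts, with a median of 0.495. In bigenic mice it ran from 0.160 to 2.72 CPM, 3 to 55 counts, with a median of 0.774. The groups overlapped and 16 of 32 bigenic mice were above every control, for a log2 fold change of 0.94 ± 0.23 (SE; adjusted p = 0.000457). Cdc20, the activator of the same complex, was 0.43 ± 0.16 higher (adjusted p = 0.020), and the kinase Plk1 0.25 ± 0.10 higher (adjusted p = 0.026), the latter lost without the filter on low counts (adjusted p = 0.056). The kinase Aurka was 0.38 ± 0.16 higher with an adjusted p of 0.0437, a call lost in 3 alternatives (adjusted p up to 0.0859). The cyclins did not pass: Ccna2, active in S phase and G2, had -0.26 with a 95% interval from -0.52 to 0.0015, and the mitotic cyclin Ccnb2 had 0.04 with an interval from -0.33 to 0.41. Without TDP-10+12 mouse 8 Ccna2 became lower (-0.30, adjusted p = 0.0376, with a range of 0.0376 to 0.162 over 9 alternatives).

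Among kinetochore and checkpoint genes, 5 of 8 members could be tested and 2 were higher, where 27.1% of all tested genes were higher. Bub1b had medians of 0.204 CPM in ctrl-PBS and 0.399 in bigenic mice, close to the floor, and a log2 fold change of 0.73 ± 0.27 (adjusted p = 0.019). Cenpe, a kinetochore motor, was 0.39 ± 0.17 higher (adjusted p = 0.0463), and no bigenic mouse exceeded the highest control at 1.95 CPM. The Cenpe call was lost in 4 alternatives, one of them leaving out TDP-10+12 mouse 8 (adjusted p = 0.0553, with a range of 0.036 to 0.0865 over 8 alternatives). Cenpf, with 2 to 10 counts in ctrl-PBS, had 0.47 and an interval from 0.0026 to 0.93 (adjusted p = 0.0836). Birc5 (survivin) had 0.14 and Nuf2 -0.05, with ranges that overlapped across all groups.

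The chromosome and spindle genes, 4 of 7 of which were higher, held the largest rise of the 27 tested members, in Mki67. Mki67 encodes the Ki-67 protein that coats mitotic chromosomes and is the usual histological mark of cycling cells. It ran from 0.306 to 1.69 CPM in ctrl-PBS, 6 to 33 counts, with a median of 0.999. It ran from 1.33 to 5.0 in TDP-PBS (median 2.42), from 0.803 to 5.98 in TDP-10+12 (median 2.42) and from 1.24 to 3.25 in TDP-15 (median 2.09). Above every control stood 26 of 32 bigenic mice: 8 of 10, 8 of 10 and 10 of 12 in these groups. The log2 fold change was 1.19 ± 0.17 (SE; 2.28-fold; adjusted p = 5.02e-08), and in the separate comparisons 1.28, 1.22 and 1.07.

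Top2a, the topoisomerase that untangles replicated chromosomes, had medians of 0.770 CPM in ctrl-PBS, 1.61 in TDP-PBS, 1.32 in TDP-10+12 and 1.33 in TDP-15. It overlapped more than Mki67, with 9 of 32 bigenic mice above the highest control at 1.57, and its log2 fold change was 0.95 ± 0.20 (adjusted p = 5.86e-05). Tpx2, which targets Aurora A to the spindle, ran from 1.66 to 3.46 CPM in ctrl-PBS and from 3.01 to 6.67 in bigenic mice. It separated the genotypes nearly fully, with 28 of 32 bigenic mice above every control, at a log2 fold change of 0.61 ± 0.08 (adjusted p = 7.45e-09). Nusap1, a spindle microtubule binder that overlaps Oip5 in the genome, rose by 0.92 ± 0.20 (adjusted p = 0.000121) from a median of 0.408 to 0.789 CPM.

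The other 3 genes of this role did not pass. Prc1, a midzone microtubule bundler, had 0.23 (interval from -0.06 to 0.52) and Hmmr, a spindle and hyaluronan-binding protein, had 0.33 (from -0.02 to 0.69). Anln, the cytokinesis protein anillin, is also made by myelinating oligodendrocytes in the adult brain. Its median was 24.8 CPM in ctrl-PBS and 22.9 in bigenic mice, and its log2 fold change was -0.08 with an interval from -0.27 to 0.10.

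For the 6 genes under the filter the data show mainly how often a library exceeded the floor. Cdk1, the kinase of mitotic entry, exceeded 3 counts in 1 of 17 ctrl-PBS mice and in 7 of 10 TDP-PBS, 6 of 10 TDP-10+12 and 10 of 12 TDP-15 mice, with at most 11 counts in any library. Aurkb exceeded the floor in 6 of 17 controls and 25 of 32 bigenic mice, and Bub1 in 4 of 17 and 19 of 32. Ndc80 exceeded it in 0 of 17 controls and 10 of 32 bigenic mice. Ccnb1 exceeded it in 9 of 17 and 17 of 32 mice, and Ttk in 13 of 17 and 28 of 32. Fitted without the filter over all genes with a count, the mean of the bigenic groups was higher for Cdk1 (log2 fold change 1.20, adjusted p = 0.00157), Aurkb (1.28, adjusted p = 0.00159) and Bub1 (1.08, adjusted p = 0.0335). Ndc80 had 0.78, Ccnb1 0.18 and Ttk 0.10 without a call. These fitted values depend on a small count added before the logarithm, so they are no bound.

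**Figure D4:**
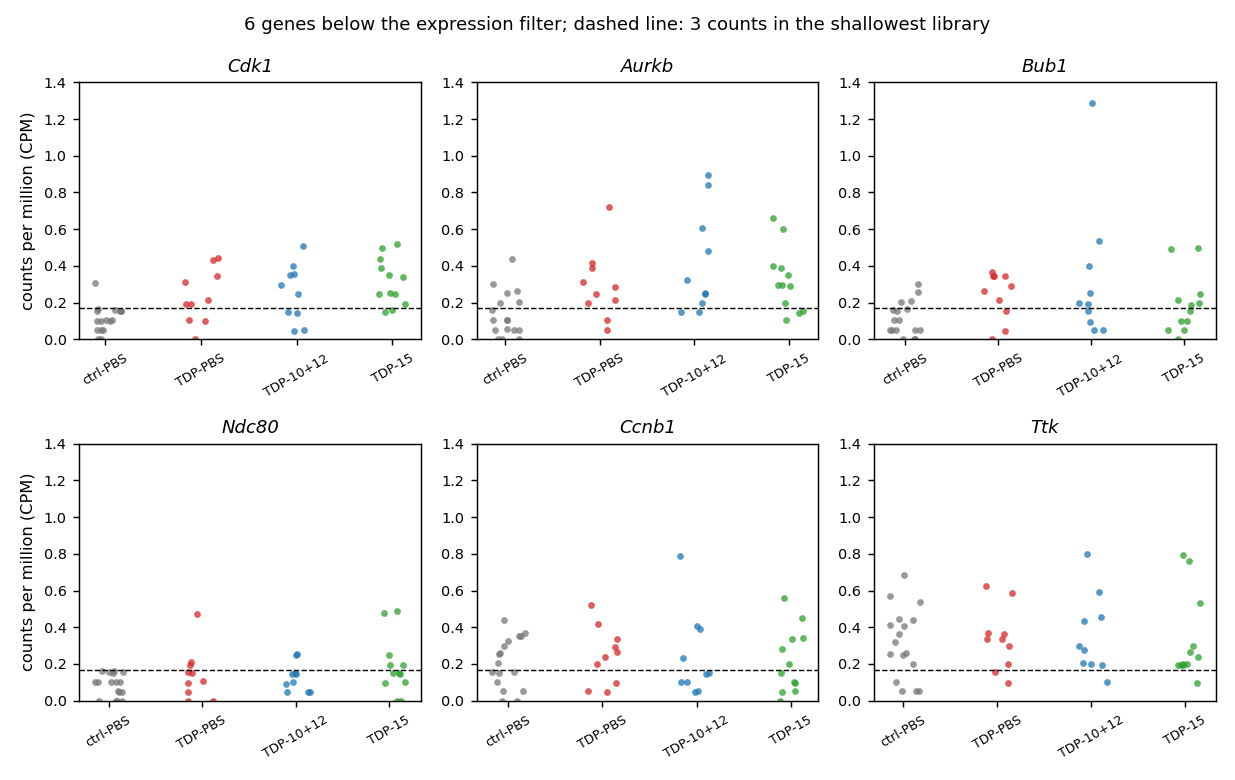
CPM of the 6 genes under the filter in each of the 49 mice, with a dashed line at 3 counts over the raw total of the shallowest library (0.169 CPM). Most ctrl-PBS mice lie under the line for Cdk1, Aurkb, Bub1 and Ndc80, and the ranges of Ccnb1 and Ttk overlap across all groups.

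A difference of vaccinated from sham-injected bigenic mice was not detectable in these genes at this depth. No member was called between TDP-10+12 and TDP-PBS, TDP-15 and TDP-PBS, or TDP-10+12 and TDP-15, where 0% of all genes passed with edgeR (and no member passed with DESeq2 or limma). At an unadjusted p under 0.05, 952, 552 and 1244 of the 18220 genes passed, among them 1 member in each comparison: Mcm6, Tyms and Mcm6 again. Without TDP-10+12 mouse 8 the unadjusted p of Mcm6 was 0.102 against TDP-PBS and 0.187 against TDP-15. The intervals leave room for differences. For Mki67 the 95% interval ran from -0.52 to 0.40 for TDP-10+12 against TDP-PBS and from -0.65 to 0.24 for TDP-15 against TDP-PBS, on the log2 scale. For Mcm7 the intervals were narrower, from -0.24 to 0.08 and from -0.13 to 0.17.

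Other cell cycle genes gave the surroundings in the same comparison of all bigenic mice with ctrl-PBS, where 27.1% of all genes were higher and 27.0% lower. Of 18 tested genes of G1 control, 6 were higher, near that share, and 2 lower, below it. Ccne2, an S phase entry cyclin, rose by 0.57 ± 0.09, Rbl1 by 0.45 ± 0.10 and E2f8 by 0.44 ± 0.16, while Mycn (-0.46 ± 0.09) and the growth factor responsive cyclin Ccnd1 (-0.44 ± 0.11) were lower. Of 6 tested CDK inhibitors 1 was higher and 1 lower. Cdkn1a, the p53 target p21 that arrests the cycle, rose by 1.14 ± 0.14, from 33.7 ± 10.1 CPM (SD) in ctrl-PBS to 68.2 ± 12.3 in TDP-PBS, 82.0 ± 51.4 in TDP-10+12 and 72.8 ± 17.9 in TDP-15. TDP-10+12 mouse 8 alone had 221 CPM of it. Cdkn2d was lower (-0.19 ± 0.04).

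Of 31 other tested S phase genes the test called 6 higher and 2 lower (median log2 fold change 0.07), both below the shares of all genes. Uhrf1, Mcm10 and Pole rose by 0.70, 0.37 and 0.34, and the clamp loader subunits Rfc5 and Rfc2 were lower at -0.71 and -0.21. Of 32 other tested mitosis genes 12 passed as higher, above the share of all genes, and 3 as lower, below it (median 0.28). Kif20b, Melk and Espl1 (separase) rose by 0.92, 0.77 and 0.74. Spag5, a spindle protein, stood against them at -1.12 ± 0.09, from 11.9 ± 2.30 CPM (SD) in ctrl-PBS to 5.38 ± 1.25 in TDP-PBS, and Incenp and Mybl2 were also lower at -0.44 and -0.32.

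Marker lists of cell types were read in the same comparison of all bigenic mice with ctrl-PBS, where 27.1% of all tested genes were higher and 27.0% lower. Of 17 microglia identity genes 11 were higher and 1 lower, and their summed level was 450 to 572 CPM in ctrl-PBS, 589 to 854 in TDP-PBS, 460 to 811 in TDP-10+12 and 480 to 1094 in TDP-15. Of 20 activated microglia genes 17 were higher and 1 lower. Oligodendrocyte precursor markers (3 higher, near the share of all genes, and 1 lower of 10) summed to 403 to 519 CPM in ctrl-PBS and 412 to 528 over the bigenic groups. Mature oligodendrocyte (1 and 2 of 12), astrocyte (2 and 3 of 10), and endothelial and perivascular markers (2 and 3 of 12) had calls in both directions, near or below those shares. Neuroblast and subventricular zone markers (0 higher, 3 lower of 13), olfactory bulb markers (0 and 3 of 8 tested) and neuron markers (0 and 8 of 10) had lower members and none higher. Of these the neuroblast count was near the share of all genes lower, and only the neuron count was far above it. Of the T and B cell list 3 of 14 genes could be tested, of which 1 was higher and 1 lower. Their log2 fold changes ran from -1.38 to 0.54 with a median of -0.25, so the summed level below is not a change shared by the list. The list summed to a median of 22.7 CPM in ctrl-PBS (range 4.15 to 37.0) and to medians of 10.0, 8.69 and 8.59 in TDP-PBS, TDP-10+12 and TDP-15, and Cd3e, Cd3d, Cd3g and Cd8a were among its 11 genes too low to test. More cells of a type and more RNA per cell cannot be told apart in bulk tissue, and the part of these lists in the difference between genotypes was not tested.

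Within the 32 bigenic mice the level of each member was set against a microglial score, the mean of the standardized log2 CPM of the 17 microglia identity genes in each mouse, with group means removed. Pearson r was positive for 23 of the 27 tested members with a median of 0.32, whereas 49.5% of all tested genes were positive with a median of -0.0032. Without the 2 mice farthest from the median score, 23 were positive, the median fell to 0.20 and r was lower in 19 members. Mki67 had r = 0.55 (two-sided permutation p = 0.0019; Spearman rho = 0.42, p = 0.0225), Ube2c r = 0.52 (p = 0.00519; rho = 0.37, p = 0.0477), Prc1 r = 0.50 (p = 0.00674; rho = 0.43, p = 0.0187) and Top2a r = 0.49 (p = 0.00874; rho = 0.29, p = 0.111). Mcm7 had r = 0.47 (p = 0.00893; rho = 0.47, p = 0.00916), Aurka 0.47, Cdc20 0.43 and Rrm2 0.39, the last of the 8 members with a raw p under 0.05. Among called members of the genotype comparison, the lowest r were those of Cenpe (-0.16), Nusap1 (-0.02), Mcm2 (0.12) and Bub1b (0.15). Nusap1 and Bub1b had few counts per library, which limits r, so their low values do not show that a relation is absent.

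In a fit across all genes with group and score as terms, 3.31% of 17749 genes were called, and of the members only Mki67 was, rising by 0.51 ± 0.14 log2 units per unit of score (edgeR, adjusted p = 0.0346). Ube2c (0.65 ± 0.19, adjusted p = 0.0501) and Top2a (0.56 ± 0.18, adjusted p = 0.080) followed. The 17 genes that make up the score had unequal slopes, from 0.07 (P2ry13) to 0.63 (C1qa), and 10 of them were called. Because each is part of the score, a rise with it was built in and supports nothing. These 10 calls are included in the 3.31%. C1qb, C1qc and Ctss had slopes of 0.60, 0.62 and 0.57, whereas P2ry12 and Fcrls had 0.10 and 0.13 without a call. The Mki67 call rested on few mice: its adjusted p was 0.0865 without TDP-10+12 mouse 8 and 0.427 without TDP-10+12 mouse 5 and TDP-15 mouse 4, the 2 mice with the lowest scores (-1.73 and -1.55). Over all 7 alternatives it ran from 0.0299 to 0.427. Without those 2 mice r fell to 0.36 for Mki67, 0.35 for Ube2c, 0.20 for Top2a, 0.16 for Cdc20 and 0.32 for Aurka, while it was 0.45 for Prc1, 0.37 for Rrm2 and 0.48 for Mcm7. By group, r of Mki67 was -0.06 in TDP-PBS, 0.79 in TDP-10+12 and 0.77 in TDP-15, and the difference between groups was not tested. Of the other members with a raw p under 0.05, r in TDP-PBS was 0.17 for Ube2c, 0.37 for Prc1 and 0.10 for Top2a. It was 0.51 for Mcm7, 0.35 for Rrm2, -0.17 for Aurka and -0.34 for Cdc20. The 2 mice with the lowest scores belong to the vaccinated groups.

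**Figure D5:**
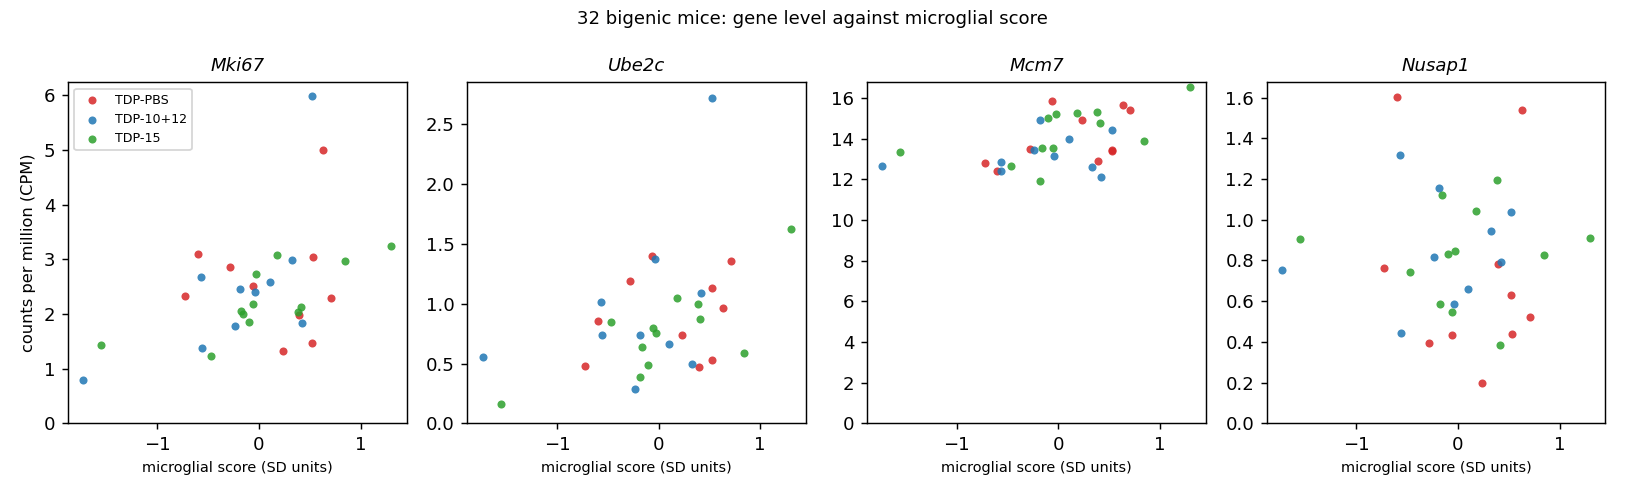
CPM of 4 genes in the 32 bigenic mice against the microglial score, coloured by group. Mki67 and Ube2c are low in the 2 mice with scores below -1.5 and high in TDP-10+12 mouse 8, Mcm7 spans 11.9 to 16.5 CPM, and Nusap1 has r = -0.02.

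Correlations between the members from mouse to mouse were mostly low, and no such value was computed for all genes. Several members had few counts per library, which also limits r. Over all 49 mice with group means removed, the 351 pairs of tested members had a median r of 0.16, and 0.099 without TDP-10+12 mouse 8. The closest pairs were Mcm5 with Top2a (0.66), Ube2c with Tpx2 (0.56) and Top2a with Mki67 (0.56), which share library and depth. TDP-10+12 mouse 8 was the highest of all 49 mice in 11 of the 27 tested members: Mcm2, Mcm5, Mcm6, Rrm2, Ccnb2, Plk1, Ube2c, Top2a, Mki67, Tpx2 and Prc1. It also had the highest microglial score of its group (0.52) and the highest summed astrocyte markers (3838 CPM) and CDK inhibitors (258 CPM, against a group median of 114) of its group, whose part in these levels was not tested.

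The mean of the bigenic groups had 16 called members with all mice and 16 without that mouse, though not the same ones. It had 14 without the libraries with olfactory bulb markers. Without TDP-10+12 mouse 8 the mean of the bigenic groups had 13 higher and 3 lower members, with Cenpe lost and Ccna2 gained (9848 of 18329 genes called). Without the 8 libraries it had 12 higher and 2 lower, with Aurka and Cenpe lost (9372 of 18258 genes called). In TDP-10+12 against ctrl-PBS the call of Mcm3 was lost without mouse 8 (adjusted p = 0.0817) and with limma (adjusted p = 0.0642), and that of Pcna without the filter on low counts (0.0779) and without the 8 libraries (0.144). In TDP-15 the call of Bub1b was lost under the same settings (adjusted p = 0.0725 and 0.0562). In TDP-PBS Tyms was lost without the filter (adjusted p = 0.0556) and with limma (0.0533), and Aurka without the filter (0.0937), with sex as a term (0.0536) and with DESeq2 (0.0545). Mcm6, not called in TDP-15, passed there without TDP-10+12 mouse 8 (adjusted p = 0.0242), with limma (0.0373) and in a fit of the 2 groups alone (0.0412).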

How the data were processed

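RNA of 49 mice was sequenced by the study as mRNA libraries with paired-end reads of 100 bp. The deposited values are raw counts per gene symbol, with replicates kept apart; the submitters' processing notes name HISAT, HISAT2, Bowtie, Bowtie2, RSEM and mm10 without roles, and the annotation and strand setting are not given in the sources used here. Genes were kept by filterByExpr by group (minimum count 10, total 15), normalized by TMM and fitted with edgeR 4.0.16 (glmQLFit, glmQLFTest, two-sided, 1 fit over 49 mice, no covariates), with Benjamini-Hochberg adjustment over all 18220 genes and a threshold of 0.05. CPM is count divided by the library total times its TMM factor (0.929 to 1.06). The floor of 3 counts in CPM was taken over raw library totals. Correlations used log2 CPM with a prior count of 2 and 100000 permutations. Alternatives used DESeq2 1.42.0, limma 3.58.1 (voom with quality weights), R 4.3.3 and Python 3.11.15. The fit was tested on simulated counts. Members and gene lists were chosen with earlier results of these data known, and the 3 sets of left-out libraries after seeing the data. Named genes were the 10 members with the smallest p in the mean comparison plus Mki67, Top2a, Pcna and Anln in full, other members by briefer values, and up to 3 called genes in each direction of each other cell cycle list. Mice are separate animals; counting limits cover counting error only. Marker lists of 10 cell types, states or tissues were read alongside. Promoter sequences and positions are RefSeq, build GRCm38.p6.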

Additional observations from a re-analysis of the deposited data

Results flagged for a closer look

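A mouse was set apart where its gap to the nearest mouse of its group exceeded 0.466 of the group's range (Dixon's limit for 10 mice, which chance passes in about 1 of 20 groups). The 33 genes gave 66 such tests in TDP-PBS and TDP-10+12 and 13 passed; larger groups were not tested. TDP-10+12 mouse 8 accounted for 9, each time as the highest of its group: Mcm6 at 12.4 CPM, Tpx2 at 6.67, Mki67 at 5.98, Mcm5 at 5.83, Top2a and Ccna2 both at 4.35, Ube2c at 2.72, Bub1 at 1.29 and Ccnb1 at 0.791. The next highest mouse of the group had 6.88 CPM of Mcm6 and 2.18 of Top2a, so mitotic and S phase genes were high together in 1 animal. The remaining 4 lay in TDP-PBS: mouse 10 was high in Mki67 (5.0 CPM, next 3.10), mouse 7 high in Cdc20 (1.21), and mouse 1 high in Ndc80 (0.470) and low in Mcm3 (1.25).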

How the results depend on the processing

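With DESeq2 size factors or upper-quartile scaling, no member changed its call between genotypes, and no scaling, test, sex term or left-out library turned a called member's direction. Demanding at least 10 counts in every mouse left 13 members to test, with 7 called in TDP-10+12 against ctrl-PBS (11 before), 5 in TDP-15 (11) and 8 in the mean of the bigenic groups (16). No member still tested changed its call in these comparisons, and the thinly counted members were no longer tested. Of all 14742 genes then tested, 6888, 7782 and 8879 were called in these comparisons. The 13 members thus lay below the share of all genes in TDP-15 and near it in the mean. No member passed between bigenic groups under any alternative. The microglial score was less stable: against 1 called member, 0 were called with a score from activated microglia genes, with limma-voom, without TDP-10+12 mouse 8 and without the 2 mice of lowest score, and 4 (Mki67, Ube2c, Top2a and Prc1) with sex as a further term; the cause was not tested. Without the libraries with olfactory bulb markers Ube2c (adjusted p = 0.0343) replaced Mki67 (0.0757). Raw correlations under 0.05 numbered 8, and 11 with the activated score or without removing group means. No analysis by litter or pair was possible, because the labels name neither and replicate numbers were given in accession order. Depth limits the 6 untested genes and every gene near 3 counts per library.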

Other observations

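The 5 genes whose log2 CPM followed Mcm7 most closely over the 49 mice, with group means removed, were Gm19744 (r = 0.59), Shisa8 (0.58), Lck (0.58), Cacng5 (0.58) and Pacsin2 (0.58), none of them a cell cycle member.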
